A study of Homo sapiens with 4 samples.

Results

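The septin family was examined at the transcript and gene level in HCCLM3, a human hepatoma cell line, with and without depletion of KIAA1429. Its members here were SEPT2, SEPT7, SEPT8, SEPT9, SEPT10 and SEPT11, taken as every transcript whose name began with one of these symbols. They held 73 of the 38510 listed transcripts and 6 of the 13036 genes. KIAA1429, also called VIRMA, is a member of the m6A writer complex, which places N6-methyladenosine on RNA. RNA-seq was carried out on 4 libraries from HCCLM3 cells stably infected with lentivirus, 2 with a control hairpin (shCtrl) and 2 with a hairpin against KIAA1429 (shKIAA1429). The cells of both groups were thus infected, and each group represents a single line with a single hairpin vector as far as the labels go. The labels do not say whether the replicates came from separate cultures, so p-values measure the spread between these libraries, which may be technical. The unit was FPKM, which scales fragments to transcript length and library total, and a gene's level was the sum over its listed transcripts. The files hold no read counts, so the depth behind each value is unknown.

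Septins are GTP-binding proteins that join end to end into hetero-oligomers, which then form filaments, rings and cages at the cell cortex. They act as scaffolds and diffusion barriers, and they are best known for their place at the cleavage furrow in cytokinesis, along actin bundles and on microtubules. By sequence, SEPT8, SEPT10 and SEPT11 belong to 1 subgroup, whereas SEPT2, SEPT7 and SEPT9 each stand for another. A subunit of a given subgroup takes a set position in the oligomers that hold it.

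The nucleotide-binding pocket is what all members share. The stretch that encodes the Walker A motif, the loop that holds the phosphates of GTP, was read from the longest complete coding sequence of each member in the GENCODE annotation of GRCh37. It is shown because all members carry it, so that they can be set beside each other base by base. Capitals mark the codons of the fixed glycine at the start and of the fixed glycine, lysine and serine at the end, and each sequence runs 5′ to 3′ on the strand of the gene.
SEPT2: GGTgaatcaggtctaGGAAAATCG
SEPT7: GGTgaatctggattgGGAAAGTCG
SEPT8: GGGgagaccggcattGGCAAATCC
SEPT9: GGGcagagcggcttgGGTAAATCC
SEPT10: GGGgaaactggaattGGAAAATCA
SEPT11: GGTgagacaggcattGGCAAATCC
In every member this stretch crossed an exon junction. It lay within chr2:242265528-242274563 in SEPT2 and chr7:35840880-35903184 in SEPT7, both on the plus strand. In SEPT8 it lay within chr5:132100089-132101101 and in SEPT10 within chr2:110342876-110343298, both on the minus strand, and in SEPT9 and SEPT11 within chr17:75478417-75483528 and chr4:77917692-77926776 on the plus strand. Between SEPT8 and SEPT11 only 2 of the 24 bases differed, against 11 of 24 between SEPT2 and SEPT9, and the 6 stretches encoded 3 different versions of the motif. Over whole coding sequences aligned end to end, SEPT8 and SEPT11 were identical at 74.4% of 1287 aligned bases, SEPT10 and SEPT11 at 71.9% of 1279 and SEPT8 and SEPT10 at 71.3% of 1291. No pair outside this subgroup was above 67.3%, the value of SEPT2 and SEPT7.

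The targeted gene was reported first as a check of the labels. VIRMA stood at 9.37 and 14.1 FPKM in shCtrl replicates 1 and 2 and at 6.90 and 8.52 in shKIAA1429. Both depleted libraries were below both controls, with a log2 fold change of -0.53 (SE 0.24) that did not pass the test (limma, adjusted p = 0.917). Summed FPKM per library ranged from 370253 to 390224. Of the hepatocyte markers, 3 of 9 had a row in the files used here, and the epithelial keratins KRT8 and KRT18 were at 1019 to 1176 and 971 to 1073 FPKM, while SERPINA1 was at 3.34 to 5.63. Of the markers of other cell types, CD68 was at 44.1 to 52.3 FPKM and COL1A1 at 3.54 to 6.76, and the other markers of leukocytes, endothelium and fibroblasts were not analysed here. Across all 11657 genes tested, 0 (0%) passed both thresholds, which were an adjusted p under 0.05 with a log2 fold change over 1 in size (limma on log2(FPKM + 1)), and 5.63% had an unadjusted p under 0.05. Across the 24996 transcripts tested these shares were 0% and 6.28%.

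SEPT9 was the most abundant septin in all 4 libraries. SEPT2 and SEPT11 followed, except in shCtrl replicate 2, where SEPT7 exceeded SEPT11. SEPT2 was lower and SEPT11 higher in both shKIAA1429 libraries than in both controls, but neither difference held after adjustment over all genes. The 6 genes together summed to 211 and 224 FPKM in shCtrl and to 186 and 219 in shKIAA1429, between 0.0477% and 0.0598% of the FPKM of a library. The groups overlapped in this sum.

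SEPT2, which gives its name to a subgroup of the family, lies on the plus strand at chr2:242254515-242293442 (GRCh37). It was at 58.9 and 53.0 FPKM in shCtrl replicates 1 and 2 and at 31.5 and 40.9 in shKIAA1429, so the depleted libraries lay below the controls without overlap. The means were 56.0 ± 4.18 and 36.2 ± 6.65 FPKM (SD, n = 2 each). The difference on the log2(FPKM + 1) scale, where changes of low values come out too small, was -0.62 (SE 0.17), the largest of the 6 genes in size, with an adjusted p of 0.748 by limma. HDLBP, an abundant gene on the minus strand at 126 to 160 FPKM, overlaps the 5′ end of the SEPT2 locus. Whether counting used strand is not given in the sources used here, so reads from that overlap cannot be assigned with certainty.

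SEPT11, a subunit of the SEPT6 subgroup, lies at chr4:77870856-77961253 on the plus strand. It measured 28.4 and 27.0 FPKM in shCtrl against 36.7 and 44.3 in shKIAA1429, or 27.7 ± 0.982 against 40.5 ± 5.37 (SD, n = 2 each). Both depleted libraries were above both controls. The log2 fold change was 0.53 (SE 0.15), with an adjusted p of 0.757 by limma. SEPT2 and SEPT11 had unadjusted p-values of 0.0168 and 0.0182 in that fit. They were the 2 of 6 septin genes under 0.05, against 5.63% of all genes tested. With 1 library left out, the log2 fold change ranged from -0.81 to -0.44 for SEPT2 and from 0.40 to 0.66 for SEPT11.

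SEPT8 and SEPT10 complete the SEPT6 subgroup here. SEPT8, on the minus strand at chr5:132086509-132113561, measured 15.1 and 15.3 FPKM in shCtrl against 14.1 and 12.2 in shKIAA1429. The depleted libraries were below the controls, but by a log2 fold change of only -0.20 (SE 0.15, limma, adjusted p = 0.969). SEPT10, on the minus strand at chr2:110300559-110371783, measured 19.1 and 15.1 FPKM in shCtrl against 15.98 and 17.9 in shKIAA1429, and the groups overlapped. Its log2 fold change of -0.01 (SE 0.17) took the other sign when the values were scaled to a common upper quartile (0.01).

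SEPT7, the subunit that most septin oligomers need, lies on the plus strand at chr7:35840542-35946715. It measured 10.5 and 28.9 FPKM in shCtrl against 10.7 and 22.5 in shKIAA1429. The libraries divided by replicate number and not by group, since replicate 1 was low and replicate 2 high in both. The labels do not say what libraries of the same number share. A fit with a replicate block gave the same log2 fold change, which did not pass the test either (limma, adjusted p = 0.680, against 0.999 without the block). The log2 fold change of -0.16 had an SE of 0.56, and it was 0.53 without shCtrl replicate 2 and 0.34 without shKIAA1429 replicate 1. Reads from SEPT7 may also be shared with its pseudogenes, of which SEPT7P2 was listed at 1.31 to 2.45 FPKM. SEPT9, on the plus strand at chr17:75276651-75496678, measured 78.9 and 84.6 FPKM in shCtrl against 76.9 and 80.7 in shKIAA1429, with a log2 fold change of -0.05 (SE 0.12) and overlapping groups.

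**Figure D1:**
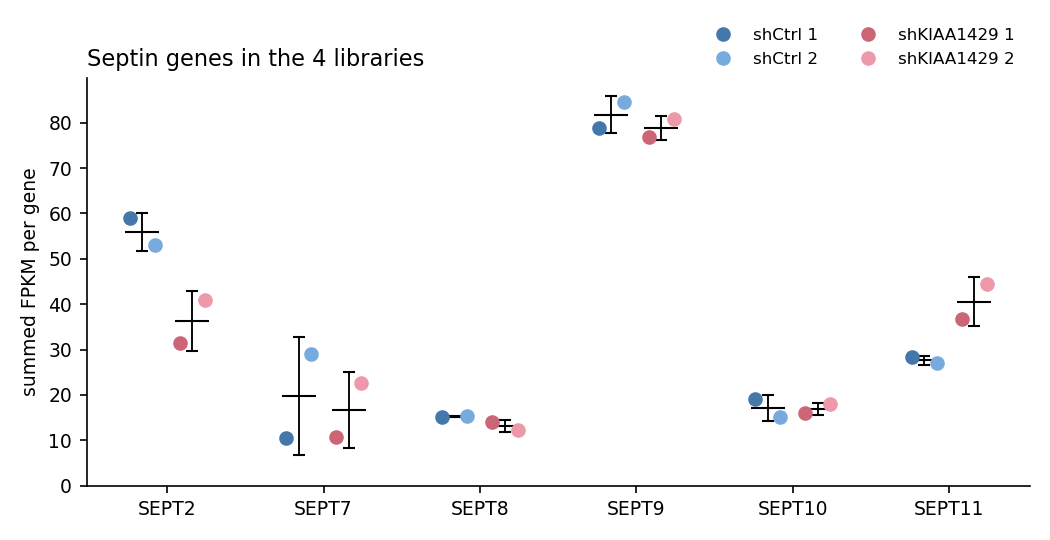
Summed FPKM of each septin gene (vertical axis) in the 4 libraries, with the points of shCtrl in blue and of shKIAA1429 in red and black lines for the mean and SD of each group (n = 2). The red points of SEPT2 lie at 31.5 and 40.9, under the blue ones, those of SEPT11 lie at 36.7 and 44.3, over the blue ones, and SEPT7 splits by replicate number.

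Thus 1 septin gene had both depleted values above both controls and 2 had them below, while 3 overlapped. Over all genes tested, 16.9% were above and 16.7% below in this way, and the median log2 fold change was -0.01, against -0.11 over the 6 septins. For a single gene an exact two-sided permutation test of 2 against 2 libraries cannot go below p = 0.333. In shCtrl the order of the levels was SEPT9, SEPT2 and then the other members, with SEPT7 overlapping SEPT8, SEPT10 and SEPT11. In shKIAA1429 SEPT9 remained highest, but SEPT11 ranked second in both libraries and SEPT2 came after it, with ranges (36.7 to 44.3 and 31.5 to 40.9 FPKM) that overlapped. SEPT8, SEPT10 and SEPT7 were lowest.

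Among other septin loci, SEPT6 was at 13.2 to 16.4 FPKM over the 4 libraries. SEPT5, best known from platelets and neurons, measured 2.49 and 1.29 FPKM in shCtrl against 3.02 and 7.16 in shKIAA1429. SEPT1 did not exceed 0.932 FPKM.

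The leading transcript was then followed, that is, the one with the highest FPKM of its gene in a library. SEPT7-205, SEPT9-203 and SEPT11-201 led in all 4 libraries, whereas in SEPT2, SEPT8 and SEPT10 the lead passed from one transcript to another. A change of leader in 3 of 6 genes is not unusual in these files: it was seen in 39.8% of the 8200 genes with at least 2 listed transcripts and in 51.0% of the 2512 genes with at least 5. Of the 73 septin transcripts, 70 had a counterpart in the GENCODE annotation, and 18 of those had no exonic base of their own that the other listed transcripts of the gene lacked. The median share of such private bases was 11.6% of a transcript.

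The leading transcripts of SEPT2 differed in where coding begins. The 3 starts are shown because the lead moved between them. Capitals mark the start codon, and each sequence is the first 30 coding bases on the plus strand of chromosome 2.
SEPT2-208: ATGgtggtcggtgaatcaggtctaggaaaa
SEPT2-204: ATGtctaagcaacagccaactcagtttata
SEPT2-245: ATGccgtggataagcgaggggagagcgact
The start of SEPT2-245 lies at chr2:242255883-242255912, and those of SEPT2-204 and SEPT2-208 cross a junction within chr2:242263648-242265428 and chr2:242265519-242274560. The coding sequence of SEPT2-208 (963 bases) thus opens at the Walker A stretch printed above, that of SEPT2-204 (1083 bases) opens further upstream, and that of SEPT2-245 (1188 bases) begins in another exon. SEPT2-203 and SEPT2-205 share the start of SEPT2-204.

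SEPT2-208 measured 33.9 and 0.217 FPKM in shCtrl against 14.4 and 0.670 in shKIAA1429. It was high in both libraries numbered 1 and under 1 FPKM in both numbered 2, a ratio of 156 between the 2 controls. SEPT2-204 measured 0.653 and 26.0 FPKM in shCtrl against 1.01 and 2.01 in shKIAA1429, so 1 control library held most of it. The 5′ end of SEPT2-204 lies in the overlap with HDLBP. SEPT2-245 measured 2.82 and 0 FPKM in shCtrl against 0 and 21.8 in shKIAA1429. It made up 53.3% of SEPT2 in shKIAA1429 replicate 2. SEPT2-205 stood out in shCtrl replicate 2 alone, at 13.8 FPKM against 0.335 to 0.667 in the others. SEPT2-203 measured 10.8 and 1.497 FPKM in shCtrl against 5.57 and 2.73 in shKIAA1429. SEPT2-208 and SEPT2-203 had 0 private bases and SEPT2-245 had 21 of 3446. Their log2 fold changes were smaller than their errors, for example 1.29 (SE 1.79) for SEPT2-245 and -0.36 (SE 2.12) for SEPT2-208. Summed over the 9 transcripts with the start of SEPT2-204, the values were 16.7 and 46.5 FPKM in shCtrl and 11.9 and 11.6 in shKIAA1429, a grouping made after the values were seen and not tested.

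The 5 listed transcripts of SEPT8 included the 2 septin transcripts with the smallest p-values. SEPT8-206 measured 3.39 and 4.04 FPKM in shCtrl against 0.00988 and 0.136 in shKIAA1429. SEPT8-207 measured 1.90 and 2.63 FPKM in shCtrl against 0.555 and 0.187 in shKIAA1429. Both were lower in each depleted library than in each control. On the log2(FPKM + 1) scale the differences were -2.13 (SE 0.21, unadjusted p = 0.000660) and -1.26 (SE 0.26, unadjusted p = 0.00959) in the limma fit. After adjustment over the 24996 transcripts p was 0.159 and 0.452 by limma, so neither passed. SEPT8-216 was at 0.223 and 0.819 FPKM in shCtrl and was listed at 0 in both depleted libraries.

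SEPT8-210, in contrast, divided by replicate number, and SEPT8-201 was widely spread within the depleted group. SEPT8-210 measured 5.37 and 0 FPKM in shCtrl against 13.5 and 0.00761 in shKIAA1429, whereas SEPT8-201 measured 4.25 and 7.82 FPKM in shCtrl against 0.0118 and 11.9 in shKIAA1429. The leader was SEPT8-210 in both libraries numbered 1 and SEPT8-201 in both numbered 2. These 2 transcripts differ in where coding starts and not in where it ends. SEPT8-210 has 194 private bases of 4270 and SEPT8-201 has 50 of 4394. SEPT8-206 has 183 of 4168, a share close to that of SEPT8-210, and SEPT8-207 has 1363 of 2751. The values of SEPT8-206 thus rest on about as few private bases as those of SEPT8-210.

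The last 30 coding bases of SEPT8, before the stop codon, are shown because SEPT8-206 and SEPT8-207 differ from the other transcripts here. SEPT8-216 was also lower in both depleted libraries, but it has the same coding end as SEPT8-201. Capitals mark bases of the last coding exon, on the minus strand of chromosome 5.
SEPT8-201: cccctgaggaaggacaaggacaagaagaaT
SEPT8-206: ctgaggaaggacaaggacaagaagaaATCT
SEPT8-207: AGGGATGCGACGTGGAGGGAAGGATTCCTC
SEPT8-201, SEPT8-210 and SEPT8-216 end alike within chr5:132094516-132096522. SEPT8-206 joins the same penultimate coding exon to an acceptor site upstream of theirs, within chr5:132094696-132096519, and SEPT8-207 ends in an exon further downstream at chr5:132087711-132087740. When the transcripts were summed by coding end, the end shared by SEPT8-201, SEPT8-210 and SEPT8-216 made up 65.0% and 56.4% of SEPT8 FPKM in shCtrl and 96.0% and 97.4% in shKIAA1429. The end of SEPT8-206 made up 22.4% and 26.4% in shCtrl and 0.0700% and 1.11% in shKIAA1429, and that of SEPT8-207 made up 12.6% and 17.2% and then 3.93% and 1.53%. All 3 shares were apart between the groups, although the gene's sum moved by a log2 fold change of only -0.20. The 3 shares are parts of 1 whole, so they are not separate observations. By the same rule, the share of a single transcript in its gene did not overlap in 34.4% of 21690 transcripts. The sum by coding end was formed after the values of the transcripts had been seen and is a description without a test.

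**Figure D2:**
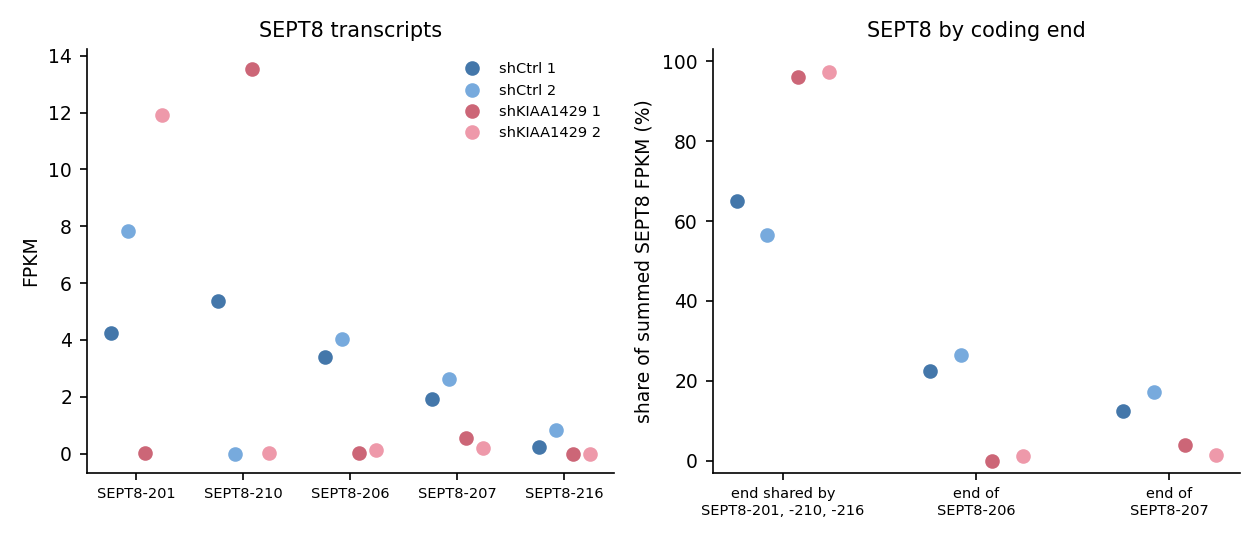
Left, FPKM of the 5 SEPT8 transcripts in the 4 libraries (shCtrl in blue, shKIAA1429 in red). Right, share of summed SEPT8 FPKM (%) by coding end, where the shared end lies at 65.0% and 56.4% in shCtrl and at 96.0% and 97.4% in shKIAA1429.

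SEPT10 differed among its transcripts at the coding end too. SEPT10-203 measured 5.11 and 7.23 FPKM in shCtrl against 6.597 and 10.1 in shKIAA1429, and SEPT10-205 measured 7.71 and 1.56 FPKM in shCtrl against 4.16 and 3.50 in shKIAA1429. Both overlapped between the groups. SEPT10-205 led only in shCtrl replicate 1, with 40.4% of the gene. SEPT10-202 measured 3.51 and 3.23 FPKM in shCtrl against 3.21 and 2.46 in shKIAA1429, and its log2 fold change was -0.20 (SE 0.21, limma, adjusted p = 0.987).

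**Figure D3:**
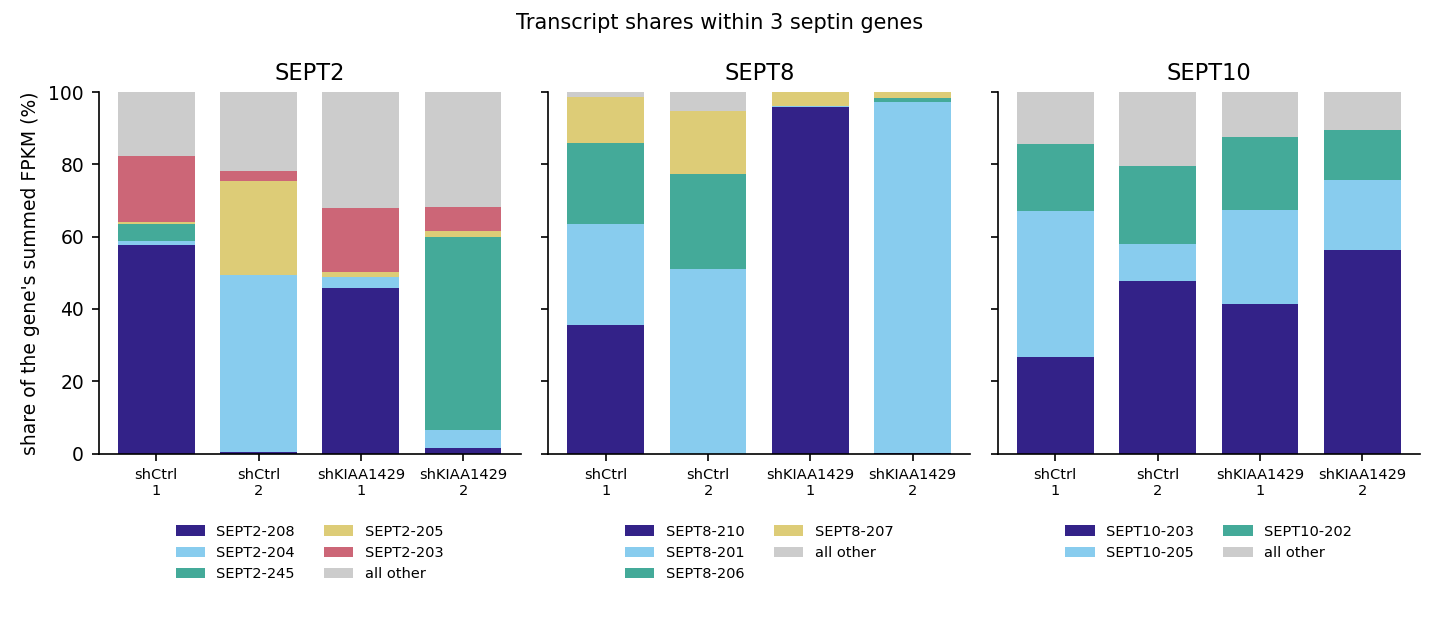
Share of each abundant transcript in the summed FPKM of SEPT2, SEPT8 and SEPT10 (stacked bars, %), 1 bar per library, with the remaining transcripts in grey. The largest block changes between libraries of the same group, as in SEPT2, where SEPT2-208 takes 57.6% in shCtrl replicate 1 and 0.409% in shCtrl replicate 2.

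SEPT9 had the most listed transcripts, 32, more than any other member. Its isoforms are known to differ in their N-terminal ends, which arise from several first exons. The starts of the 4 most abundant full-length forms are shown, with the start codon in capitals, on the plus strand of chromosome 17.
SEPT9-203: ATGaagaagtcttactcaggaggcacgcgg
SEPT9-201: ATGgagagggaccggatctcagccttgaaa
SEPT9-207: ATGgagccccctgcctccaaggtccccgag
SEPT9-237: ATGaagaagtcttactcagccttgaaaaga
SEPT9-203 and SEPT9-237 begin with the same first coding exon, within chr17:75277618-75303233 and chr17:75277618-75398151, and SEPT9-237 then skips the exon that follows in SEPT9-203. SEPT9-201 starts within chr17:75316409-75398148 and SEPT9-207 at chr17:75398557-75398586, so that its coding sequence (1266 bases) is shorter than that of SEPT9-203 (1758 bases).

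SEPT9-203 measured 26.8 and 28.4 FPKM in shCtrl against 22.0 and 24.3 in shKIAA1429. SEPT9-237 measured 4.52 and 6.03 FPKM in shCtrl against 3.07 and 3.87 in shKIAA1429. SEPT9-201 measured 15.98 and 16.8 FPKM in shCtrl against 14.99 and 15.3 in shKIAA1429. These 3 forms were below the controls in both depleted libraries, with log2 fold changes of -0.25 (SE 0.14), -0.49 (SE 0.23) and -0.11 (SE 0.14), none of which passed the test (limma, adjusted p = 0.937 to 0.999). The start of SEPT9-207 is shared by SEPT9-205 and SEPT9-206, and together these 3 transcripts were at 7.87 and 7.12 FPKM in shCtrl versus 10.5 and 8.41 in shKIAA1429. SEPT9-207 alone overlapped between the groups, at 6.13 and 5.28 against 8.16 and 5.90 FPKM. SEPT9-231, a short form whose coding end is not annotated, was at 6.12 to 6.79 FPKM throughout. The sums by start were again formed after the values were seen and were not tested.

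**Figure D4:**
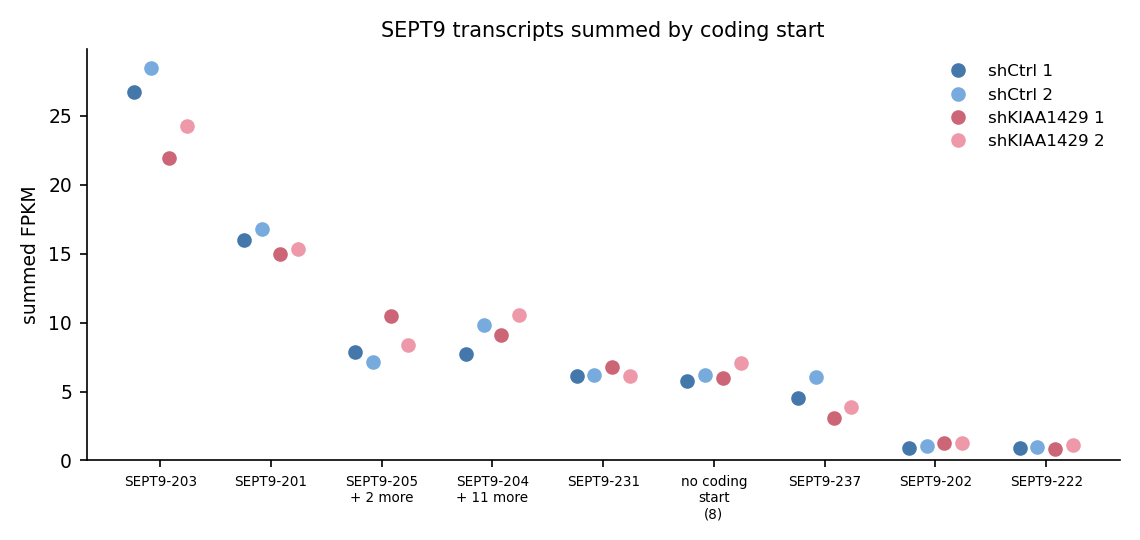
Summed FPKM of SEPT9 transcripts grouped by coding start, for starts that reach 1 FPKM in a library (shCtrl in blue, shKIAA1429 in red). Each label gives the first transcript of its group and the number of others, and 1 category holds the 8 transcripts without an annotated coding start. SEPT9-203 is the highest in each library, at 22.0 to 28.4 FPKM.

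In SEPT11 the 2 most abundant coding forms share a start and part at the end, which is shown for that reason. Capitals mark bases of the last coding exon, on the plus strand of chromosome 4.
SEPT11-201: gacaaggataagaaaaaTGCAAGCTTCACA
SEPT11-203: CAAACCAAGAAAGACAAGGATAAGAAAAAG
SEPT11-203 stops in the exon that SEPT11-201 splices out of, at chr4:77952095-77952124, while SEPT11-201 ends within chr4:77952107-77955662. SEPT11-201 measured 21.0 and 18.7 FPKM in shCtrl against 27.2 and 24.1 in shKIAA1429. SEPT11-203 measured 4.03 and 3.96 FPKM in shCtrl against 4.90 and 16.7 in shKIAA1429, and so the spread within the depleted group was wider than the gap between groups. Both forms were above the controls in both depleted libraries, with log2 fold changes of 0.36 (SE 0.16) and 1.03 (SE 0.60), neither of which passed the test (limma, adjusted p = 0.910 and 0.973).

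SEPT7-205 measured 3.95 and 15.1 FPKM in shCtrl against 3.22 and 13.3 in shKIAA1429, and this transcript alone carried most of the split by replicate number in SEPT7. SEPT7-216 measured 2.77 and 3.27 FPKM in shCtrl against 2.13 and 2.38 in shKIAA1429. SEPT7-202, whose coding sequence opens at the Walker A stretch as that of SEPT2-208 does, measured 1.14 and 1.94 FPKM in shCtrl against 1.19 and 2.53 in shKIAA1429. SEPT7-219 measured 0.817 and 2.05 FPKM in shCtrl against 2.04 and 1.74 in shKIAA1429, and SEPT7-215 exceeded 1 FPKM only in shCtrl replicate 2, at 4.12 FPKM. Of the SEPT7 transcripts described here, only SEPT7-216 was apart between the groups.

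**Figure D5:**
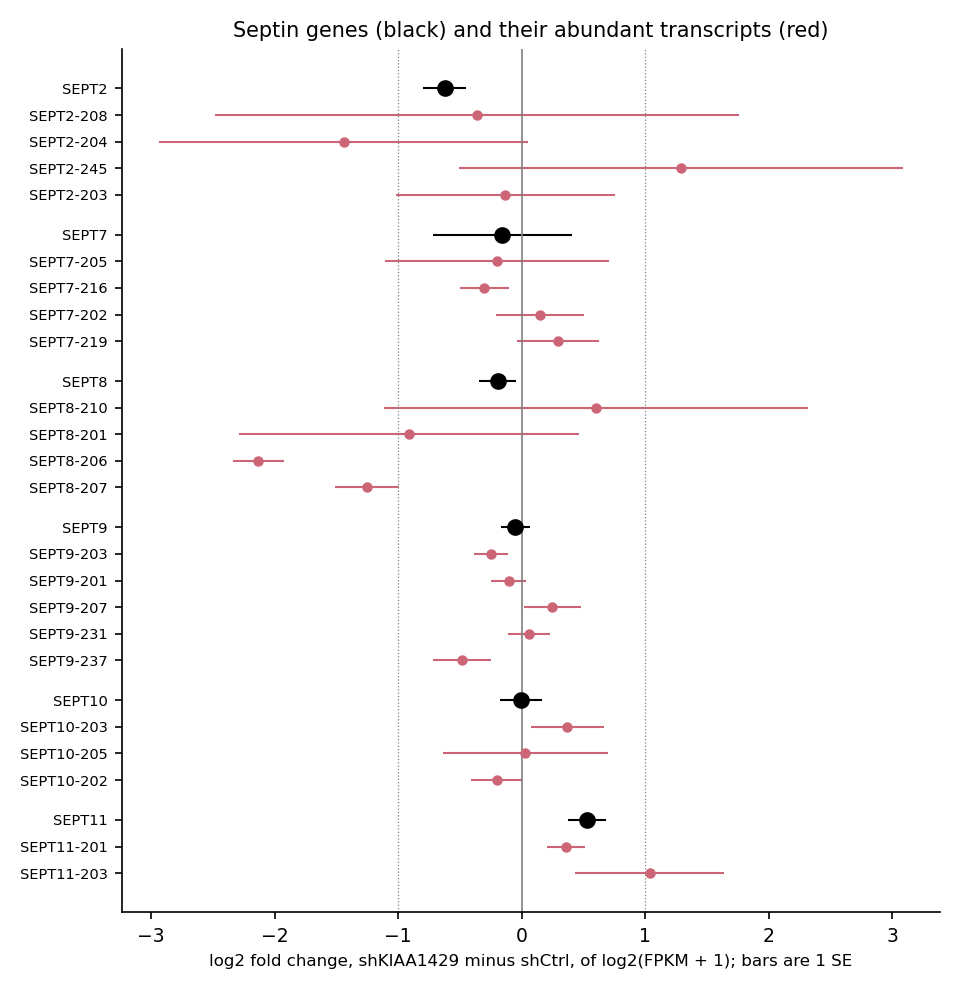
Log2 fold change of log2(FPKM + 1), shKIAA1429 minus shCtrl, for each septin gene (black) and each tested abundant transcript (red), with bars of 1 SE and dotted lines at -1 and 1. SEPT8-206 and SEPT8-207 lie beyond -1 with short bars, at -2.13 and -1.26, whereas the longest bar, that of SEPT2-208, has an SE of 2.12.

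In all, 36 of the 73 septin transcripts reached 1 FPKM in at least 2 libraries and were tested, and 24 are described singly above. None of the 36 passed both thresholds in limma. Of the 36, 2, SEPT8-206 and SEPT8-207, had an unadjusted p under 0.05, against 6.28% of all transcripts tested. Both depleted values were above both controls in 7 and below them in 9, against 16.7% and 16.8% of all transcripts tested. The median log2 fold change was 0.03, and over all transcripts tested it was -0.01. The share of a transcript in its gene did not overlap between the groups in 14 of 36, against 34.4% of 21690 transcripts. The other 49 septin transcripts stayed between 0 and 3.14 FPKM. In SEPT9, 27 such minor transcripts summed to 19.3 and 21.9 FPKM in shCtrl and to 22.0 and 25.2 in shKIAA1429.

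Proteins that bind or steer septins were taken as a list of 16 genes, all of which were tested. They comprised CDC42 and its effectors CDC42EP1 to CDC42EP5, of which the latter bind septins directly, the cytokinesis scaffold ANLN, the non-muscle myosin heavy chains MYH9 and MYH10, RHOA with its exchange factor ARHGEF18 and effector CIT, the microtubule-related MAP4 and HDAC6, and the adaptors SOCS7 and NCK1. None passed both thresholds (limma, smallest adjusted p = 0.871), and 3 of 16 had an unadjusted p under 0.05, against 5.63% of all genes tested. Both depleted values were above both controls in 6 and below in 5, against 16.9% and 16.7% of all genes tested. The median log2 fold change was 0.09, with 10 higher and 6 lower, and over all genes tested it was -0.01. The largest difference was that of CDC42EP5, at 6.85 and 4.28 FPKM in shCtrl and 12.6 and 7.995 in shKIAA1429 (log2 fold change 0.78, SE 0.30). The smallest value was that of MYH10, at 8.18 and 8.97 FPKM in shCtrl and 5.16 and 6.43 in shKIAA1429 (log2 fold change -0.50, SE 0.17).

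The genes most like SEPT2 in their profile over the 4 libraries were sought among 7475 others with a mean of at least 5 FPKM, by the root mean square difference of log2 values centred on each gene's mean. They were MCM7, a subunit of the replicative helicase, NCLN and SLC48A1, with differences of 0.06, 0.06 and 0.07. MCM7 measured 74.1 and 62.4 FPKM in shCtrl against 39.2 and 46.6 in shKIAA1429. With only 4 libraries, 16 genes lay within 0.1 of SEPT2.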

How the data were processed

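The authors deposited 1 table per library with an FPKM value per transcript. Per the labels, HCCLM3 cells carried shCtrl or shKIAA1429 (2 libraries each). The study's methods describe paired reads aligned with TopHat and counted per gene with HTSeq for DESeq, and the submitters' processing notes name Bowtie2 2.1.0 and hg19. The tool behind the deposited FPKM, its annotation release and its use of strand are not given in the sources used here. Transcripts that share exons are separated by that tool's model, so values of single transcripts are less certain than gene sums. Symbols of septins had been turned into dates in 2 of the 4 files, so members were found by transcript name.

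Counts were not used here, and the study's count test was replaced by limma 3.58.1 in R 4.3.3 on log2(FPKM + 1), with a variance trend, for features with at least 1 FPKM in at least 2 libraries. Benjamini-Hochberg adjustment ran over all features of a level, with thresholds of 0.05 for the adjusted p and 1 for the size of the log2 fold change. The fit was tested on simulated data. Gene sums added all listed transcripts of a gene identifier. Transcripts with at least 5 FPKM or 10% of their gene in a library were described singly, the partner list by its counts, median and extremes, and the 3 genes most like the septin with the largest change were named. Members and lists were chosen with earlier results of these data known. Sequences were read with Python 3.11.15 from the GENCODE transcripts of GRCh37, matched by transcript identifier without its version, and coding sequences were aligned with Biopython 1.88. Alternatives were another scaling, filter, pseudocount (0.1) and variance estimate, a replicate block, leaving out each library, coding transcripts only, and added pseudogenes. A further one kept only the most abundant transcript of each gene, by its mean over the 4 libraries.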

Additional observations from a re-analysis of the deposited data

How the results depend on the processing

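The count of genes and of transcripts past both thresholds was 0 under every alternative that kept all 4 libraries, septins and partners included. Over all genes and all transcripts it was not counted with a library left out. SEPT2, SEPT8, SEPT9 and SEPT11 kept the direction of their gene-level difference in every alternative run. With the most abundant transcript only, 0 of 6 septin genes had an unadjusted p under 0.05 (limma), against 627 of 11280 genes. SEPT10 took the other sign with upper quartile scaling (0.0104) and with its most abundant transcript only (0.3707), and it ranged from -0.1627 to 0.1506 when 1 library was left out. SEPT7 ranged from -0.8489 to 0.5302 in the same way. Among the 22 transcripts described singly and tested, 11 changed sign when a library was left out, with these ranges of log2 fold change: SEPT2-208 from -2.7827 to 2.0596, SEPT2-204 from -3.4574 to 0.5725, SEPT2-245 from -0.9659 to 3.5455, SEPT2-203 from -1.2505 to 0.9877, SEPT7-205 from -1.0839 to 0.6782, SEPT7-202 from -0.1994 to 0.4932, SEPT7-219 from -0.0769 to 0.669, SEPT8-210 from -1.3249 to 2.5271, SEPT8-201 from -2.7487 to 0.9256, SEPT9-231 from -0.0052 to 0.1243 and SEPT10-205 from -0.8533 to 0.91. SEPT2-208 also changed sign with a pseudocount of 0.1 (0.0257). The cause of these changes was not tested, beyond the smaller number of libraries in the fits that left one out, in which the lone library of a group is assumed to vary like the other group. SEPT8-206 stayed between -4.56 and -2.03 and SEPT8-207 between -2.43 and -1.06 in every setting, and neither entered the fit that asked for 1 FPKM in every library. The number of septin transcript shares that did not overlap between the groups was 9 of 31 with protein-coding transcripts only. It was 22 to 26 of 36 with 1 library left out, where a single value on one side makes overlap less likely. Shares over all transcripts were not counted in these settings, so whether the septin counts are unusual there was not tested.

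The same replicate numbers occur in shCtrl and shKIAA1429, with only 2 pairs and nothing in the labels that ties a number to a batch. Deviations of same-numbered libraries correlated at r = 0.32 over genes and 0.06 over transcripts. With a replicate block, 1269 genes had an unadjusted p under 0.05 in place of 656, and the smallest adjusted p of a septin was 0.407 at the gene and 0.550 at the transcript level. The count of septin transcripts with an unadjusted p under 0.05 was 2 of 36 in the report, against 1570 of all 24996 transcripts. It was 3 of 36 with the replicate block, against 1716 of 24996. With no filter on low values it was 5 of 73, against 2243 of 38510. With 1 FPKM required in every library it was 0 of 20, against 858 of 16697. Without read counts, sampling error could not be set apart from the spread between libraries.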
